A study of Rattus norvegicus with 28 samples.

Results

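Lamina-associated domains are long stretches of chromatin that lie against the nuclear lamina, the mesh of lamin proteins under the inner nuclear membrane. The deposited list gives 1883 such domains for control adult rat cardiomyocytes on the rn6 build, and 1638 of them lie on chromosomes 1 to 20. Megabase-scale domains were taken as the intervals of at least 1000000 bp on those chromosomes, which gave 326 domains. A further 29 intervals of that length on chromosome X and 12 on chromosome Y or unplaced sequence were left out. The rule used interval length only and no RNA value, so levels and changes of the genes inside are independent of it.

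Lamina-bound chromatin is mostly poor in genes, replicates late and carries repressive histone marks such as H3K9 methylation, and genes inside it are commonly silent or transcribed at a low level. Lamin B is one of the proteins of that mesh and was the target of the chromatin immunoprecipitation (ChIP) behind the list. Many genes that heart muscle does not need, such as odorant receptors and neuronal adhesion genes, are known to lie in lamina-associated domains in several mammalian cell types. Desmin, the muscle intermediate filament protein, joins the contractile lattice to the cell membrane and to the nucleus.

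The cells were cardiomyocytes isolated from rats aged 6 to 8 months and kept in culture for 48 h. RNA was sequenced from 3 libraries of cells given an adenovirus encoding an shRNA against desmin (shDesmin AdV), here the shDesmin libraries, and from 3 libraries of cells given Null AdV, here the null libraries. The domains were defined in cells given a scrambled shRNA (shScrambled AdV), not in the null-virus cells, from 3 ChIP replicates with inputs that the submitters combined, so a domain has no replicate error of its own. Lamin B signal in shDesmin cells was not analysed here, and a gene's place below is its place in control cells. The RNA reference carried no shRNA, so depletion of desmin and expression of an shRNA cannot be told apart. The number of animals and whether the 3 libraries of a group came from separate cultures are not given in the sources used here, so p-values measure the spread between these libraries, which may be technical.

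The 326 megabase domains held 696 Mb, or 63.2% of all domain length on these chromosomes, although they were 19.9% of the domains by number. They covered 26.6% of the 2617 Mb between the first base of each chromosome and its last listed gene or domain. Their median length was 1.79 Mb, with quartiles of 1.27 and 2.55 Mb. There were 134 domains of at least 2 Mb, 57 of at least 3 Mb and 12 of at least 5 Mb. Beside the threshold, the shortest members were chr8:98794801-99794999 at 1000199 bp and chr17:33065401-34073999 at 1008599 bp, each with 1 gene of the RNA table. The longest intervals that missed it were chr14:51530401-52527599 at 997199 bp and chr5:32149201-33145799 at 996599 bp, with 0 listed genes each.

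The longest domain, chr15:70904401-82742399, spanned 11.8 Mb and held 0 genes of the RNA table. It lay between Tdrd3 and Mzt1, the nearest listed genes on either side. The next were chr2:68893801-76555799 at 7.66 Mb with 0 listed genes, chr11:7331401-13790399 at 6.46 Mb with Gbe1, chr3:23547601-29642399 at 6.09 Mb with Gtdc1, and chr15:93873001-99936599 at 6.06 Mb with 0 listed genes. Chromosome 2 carried 47 megabase domains, more than any other chromosome examined, and chromosome 12 carried 0 of its 27 domains at this length. Megabase domains took 38.9% of chromosome 11, 38.0% of chromosome 2 and 37.4% of chromosome 16, but 13.8% of chromosome 10 and 9.87% of chromosome 19. Chromosomes 10 and 12 had the highest density of listed genes, at 8.88 and 7.21 genes per Mb, against 2.76 on chromosome 2 and 3.05 on chromosome 11.

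**Figure D1:**
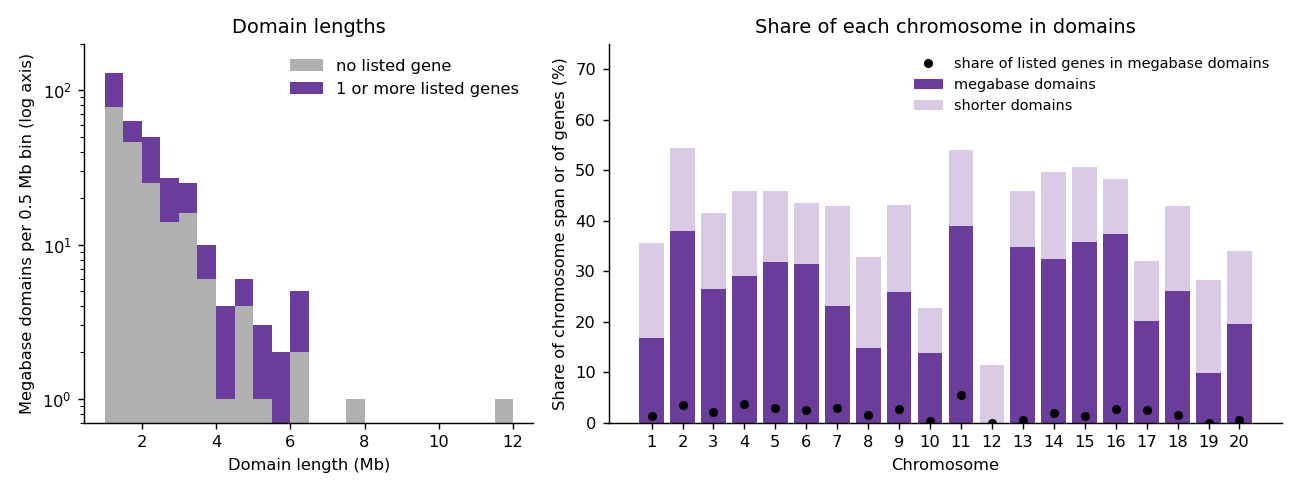
Left, the number of megabase domains in bins of 0.5 Mb on a log axis, split by whether the domain holds a gene of the RNA table. Right, the share of each chromosome's span in megabase domains and in shorter domains (bars), and the share of the chromosome's listed genes that lie in megabase domains (points); every point lies below 6%, and chromosome 12 has no megabase domain.

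Gaps beside megabase domains were much like gaps between neighbouring domains of any length. The gap from a domain edge to the next domain of any length had a median of 214 kb, with quartiles of 97.8 and 731 kb, a lowest value of 50.4 kb and a highest of 17.1 Mb (17092.8 kb). Over all 1618 gaps between neighbouring domains the median was 243 kb. Gaps under 100 kb made up 25.9% of the edges of megabase domains and 25.3% of all gaps, so short gaps were about as common beside megabase domains as elsewhere. Of the 326 domains, 150 (46.0%) had another domain within 100 kb on either side, and this share was not worked out for all domains. The median distance from a megabase domain to the next megabase domain was 2.15 Mb over 307 neighbouring pairs, and 75 of those pairs had no shorter domain between them. In 21 pairs the distance was under 100 kb. The longest chains of this kind joined 3 megabase domains. The chain at chr3:83606401-91067399 spanned 7.46 Mb and held 0 listed genes, while that at chr14:25287601-32921399 held Tecrl. How nearby intervals were joined upstream sets both domain lengths and gaps. The name of the deposited list points to a merge and a filter, which the sources used here do not describe further. No gap was under 50.4 kb, which may be a floor set by that merge, and this was not tested.

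The RNA table lists 11383 genes, 11025 of them on chromosomes 1 to 20, and holds genes with enough reads for the submitters to keep them. A gene was placed inside a domain when at least 50% of its span was covered. Megabase domains held 218 listed genes (1.98%), 206 of them protein coding, which is 0.313 listed genes per Mb. Mid-length domains, from 300000 bp to under 1000000 bp, held 0.475 per Mb, domains under 300000 bp held 0.490 per Mb, and sequence outside domains held 6.95 per Mb. Of the 218 genes, 195 lay wholly inside and 23 crossed an edge. The genes inside were long, with a median span of 30.4 kb against 20.9 kb over all listed genes. Spans over 100 kb made up 21.6%, against 11.4% of all listed genes. The median was 27.6 kb in mid-length domains and 22.5 kb in domains under 300000 bp. In these 19.0% and 22.8% of genes spanned over 100 kb, so long genes were not particular to megabase domains.

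No listed gene was found in 195 of the 326 domains (59.8%), which together span 404 Mb. Another 86 domains held 1 listed gene and 45 held 2 or more, up to 6 in chr17:50214001-53584799. Gene density fell with length only in the longest classes: 0.357 per Mb in domains of 1 to 2 Mb, 0.397 in those of 2 to 3 Mb, 0.239 in those of 3 to 5 Mb and 0.116 in the 12 domains of 5 Mb or more. It was highest at the rims. Listed genes numbered 0.583 per Mb within 100 kb of an edge, 0.429 per Mb from 100 to 300 kb and 0.248 per Mb deeper inside, taking each gene at its midpoint. These densities count genes with RNA reads, not all annotated genes.

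To see what the other genes of these regions are, the listed genes flanking each domain were looked up in the RefSeq annotation of a later build (GRCr8), and the protein-coding genes between them were read off, assuming that gene order is shared between the builds. This worked for 236 domains, and a gene between the flanking genes need not lie inside the domain. Each such stretch ends at the nearest listed genes, so it was chosen for holding few or no listed genes, and what it holds is read with that in mind. The stretches held 1900 of the 23154 protein-coding genes of the annotation (8.21%). Olfactory receptors, taken as genes with Or or Olr symbols, made up 606 of the 1900 (31.9%), against 5.52% of the whole annotation. Such symbols stood between the flanks of 14 domains. The rule also caught Olr1, a lectin-like receptor and not an olfactory one, the only match at chr4:163006801-164135399. At chr1:268164001-271196999 and chr1:271812601-273165599, which share a stretch, the only match was Olr385. In the 69 domains that filled at least 80% of the distance between their flanking genes, 245 of 592 genes (41.4%) were olfactory receptors. All of these came from chr1:167890801-170075999, chr1:172049401-173504399, chr1:229713001-231329399 and chr10:59984401-61127999, and the rest of the 69 held none. The first had 156 protein-coding genes of all kinds between its flanks, so the pooled share reflects a few clusters. Read against the overall share of 8.21%, contactins and Cntnap genes, which code for neuronal adhesion proteins, had 9 of 14 members between flanking genes. Cadherins and protocadherins whose symbols are Cdh or Pcdh followed by a digit had 12 of 35. Symbols with a letter in that place were not counted, so the 35 are only a part of the family. Glutamate and GABA receptor subunits had 13 of 47. Serpins, a family of protease inhibitors, had 10 of 49, vomeronasal receptors 29 of 183, potassium channel subunits 15 of 95 and defensins 3 of 49. Those shares describe an annotation and gene order, and were not tested.

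Between the flanks of the 11.8 Mb domain on chromosome 15 RefSeq places Pcdh20 and Pcdh9, both protocadherins, the kelch-family gene Klhl1 and the transcription factor Dach1. Between Drosha and Basp1 on chromosome 2, where chr2:63024001-68794199 and the 7.66 Mb domain lie, it places Cdh6, Cdh9, Cdh10, Cdh12 and Cdh18, a run of classical cadherin genes. Around the chromosome 11 domain it places Cadm2, an adhesion gene, and the axon guidance receptors Robo1 and Robo2 beside Gbe1. The domain at chr4:16968601-21745799 lies in a stretch with the synaptic scaffold gene Pclo, the semaphorins Sema3a, Sema3d and Sema3e and the glutamate receptor Grm3.

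Promoters from RefSeq, build GRCr8, are shown for 4 genes inside megabase domains whose transcripts are described below: Tecrl and Dnajb9, which rose, and Asns and Slc7a11, which fell. Each window runs 5′ to 3′ on the gene's strand from 250 bases before the annotated start to 50 bases after it, and capitals mark CG dinucleotides, the sites of DNA methylation in mammals. The windows are chr14:25086680-25086979 on the plus strand for Tecrl, and, on the minus strand, chr6:67002002-67002301 for Dnajb9, chr4:36769366-36769665 for Asns and chr2:136668215-136668514 for Slc7a11.
Tecrl: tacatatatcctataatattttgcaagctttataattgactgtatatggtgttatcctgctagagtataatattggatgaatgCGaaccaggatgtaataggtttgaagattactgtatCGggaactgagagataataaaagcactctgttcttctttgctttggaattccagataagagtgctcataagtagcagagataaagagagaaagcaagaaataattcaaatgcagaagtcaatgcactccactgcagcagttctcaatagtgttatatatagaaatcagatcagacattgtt
Dnajb9: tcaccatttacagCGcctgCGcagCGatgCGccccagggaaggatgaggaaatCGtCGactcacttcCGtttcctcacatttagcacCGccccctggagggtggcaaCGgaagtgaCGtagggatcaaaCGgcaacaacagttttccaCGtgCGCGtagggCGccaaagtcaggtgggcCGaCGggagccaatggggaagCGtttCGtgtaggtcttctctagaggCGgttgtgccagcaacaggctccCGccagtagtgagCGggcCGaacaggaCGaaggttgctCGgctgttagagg
Asns: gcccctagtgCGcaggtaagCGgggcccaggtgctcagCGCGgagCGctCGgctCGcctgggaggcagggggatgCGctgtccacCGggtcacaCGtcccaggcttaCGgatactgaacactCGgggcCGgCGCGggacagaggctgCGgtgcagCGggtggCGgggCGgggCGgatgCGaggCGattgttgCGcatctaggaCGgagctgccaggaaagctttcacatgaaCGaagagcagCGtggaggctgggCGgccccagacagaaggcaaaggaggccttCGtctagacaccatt
Slc7a11: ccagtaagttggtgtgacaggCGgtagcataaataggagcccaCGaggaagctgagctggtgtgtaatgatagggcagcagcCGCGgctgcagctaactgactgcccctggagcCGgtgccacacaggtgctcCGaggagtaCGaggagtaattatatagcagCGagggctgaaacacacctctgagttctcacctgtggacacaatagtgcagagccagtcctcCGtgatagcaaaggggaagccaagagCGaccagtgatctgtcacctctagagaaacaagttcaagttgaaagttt
The Tecrl window held 2 CG dinucleotides and 34% G and C, the Slc7a11 window 10, the Dnajb9 window 25 and the Asns window 28. The median over 33469 promoters in the table was 7, with quartiles of 3 and 19, so these members range from CG-poor to CG-rich. A promoter was at hand for 153 of the 218 genes (70.2%), below the 80% needed for a statement on the members as a group, so a check over all members is void.

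Des, the target, checked the RNA labels. It stood at 9.18 ± 0.12 log2 CPM in shDesmin libraries and 12.57 ± 0.03 in null libraries (SD, n = 3 each), a log2 change of -3.39 (SE 0.10, limma adjusted p = 7.3e-09). CPM (counts per 1000000) here are reads relative to a scaled library size, on a log2 scale that had 0.5 added to each read count. Changes are shDesmin minus null, and called means an adjusted p under 0.05 by limma with the Benjamini-Hochberg adjustment over all 11033 tested genes. Library totals over listed genes ran from 9168307 to 9817421 reads in shDesmin libraries and from 8724543 to 10908458 in null libraries. The submitters' scaling divided the groups: scale factors were 0.73 to 0.83 in shDesmin and 1.17 to 1.42 in null libraries, and mitochondrial transcripts took 35.0 to 39.1% of reads in shDesmin against 24.7 to 34.5% in null libraries. With plain library totals the median change of all tested genes moved by -0.71 on the log2 scale, so each direction below is relative to that scaling. In bulk RNA, fewer cells of a type and less RNA per cell cannot be told apart.

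Of the 218 genes in megabase domains 213 were tested, and 65 (30.5%) were called higher and 41 (19.2%) lower in shDesmin cells, while 107 were not called. Over all tested genes 58.9% were called, 27.5% higher and 31.4% lower, against 49.8% called in megabase domains. The share called higher was thus near the background and the share called lower was under it, and neither difference was tested. Shorter domains also had few falls. Mid-length domains had 28.0% called higher and 19.2% lower of 125 tested genes, and domains under 300000 bp 19.2% and 11.5% of 52. The split of 65 higher and 41 lower became 88 and 32 with median centring, 80 and 33 with quantile normalization, and 27 and 105 with library totals. Over all tested genes the shares called higher and lower under those settings were 36.0% and 24.5%, 28.2% and 28.9%, and 7.27% and 62.5%. Changes of at least 2-fold were seen in 39 of the genes called higher and 19 of those called lower. The 2 groups of libraries did not overlap for 128 genes (60.1%), against 64.9% of all tested genes. Not tested, for too few reads, were Anxa10, Hs3st5, Kif18a, Ano3 and Cps1.

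The median log2 change was 0.12 in megabase domains, against 0.09 in mid-length domains, 0.04 in short domains, -0.06 outside domains and -0.04 over all tested genes. With library totals the median in megabase domains was -0.59 against -0.75 over all tested genes, since that scaling shifts every change by 1 constant. The median in megabase domains lay above that of all tested genes by 0.16 as reported, by 0.24 with quantile normalization, by 0.13 with the stricter filter and by 0.13 to 0.21 without 1 of the libraries. By depth inside the domain the medians were 0.09 within 100 kb of an edge, 0.09 from 100 to 300 kb and 0.16 deeper inside. All genes inside took 0.585, 0.559 and 0.542% of the listed reads in the 3 shDesmin libraries and 0.627, 0.593 and 0.574% in the 3 null libraries, ranges that overlap.

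Few reads came from genes inside. The median over tested genes was 2.62 log2 CPM in shDesmin and 2.46 in null libraries, against 3.76 and 3.94 over all tested genes. It was 2.16 and 2.40 in mid-length and 1.89 and 2.10 in short domains, so low levels held for every length class. These values are not per length. Below 1 log2 CPM lay 21.1% of the tested genes inside, against 11.4% of all tested genes, and at 4 or more 23.0% against 47.6%. In that upper band 24 of 49 genes inside (49.0%) were called higher and 9 (18.4%) lower, beside 37.3% and 28.5% of all 5248 genes in the band. From 2 to 4 log2 CPM the counts inside were 20 higher and 21 lower of 73, beside 19.7% higher and 39.1% lower of all genes in that band. From 1 to 2 log2 CPM 14 of 46 genes inside (30.4%) were called higher and 4 (8.70%) lower, beside 18.9% and 27.4% of all genes in that band. Below 1 log2 CPM 7 of 45 genes inside were called higher and 7 lower (15.6% each), beside 15.6% higher and 27.1% lower of all genes there, and the median standard error of a change was 0.44 inside and 0.43 over all genes.

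**Figure D2:**
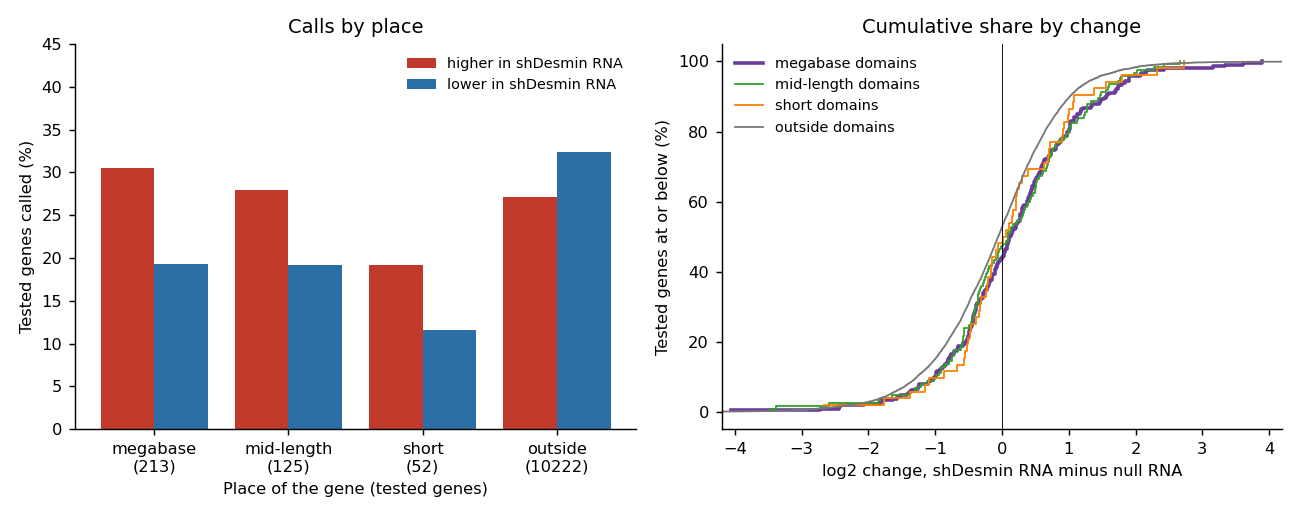
Left, the share of tested genes called higher or lower in shDesmin RNA by place, with the number tested below each name. Right, the cumulative share of tested genes by log2 change; in megabase domains 30.5% were called higher and 19.2% lower, and outside domains 27.2% and 32.4%.

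The genes named for the highest levels inside were Acadl, Cox7c, Phf14, Psma2 and Asns, and they did not share a direction. Acadl and Cox7c of mitochondrial energy metabolism and Phf14 were called higher in shDesmin cells. Psma2 was not called and Asns was called lower, with values given further below. Acadl, the long-chain acyl-CoA dehydrogenase of fatty acid oxidation, lies at chr9:73833388-73871888, 20 kb from its domain's edge by its midpoint. It stood at 10.74, 10.92 and 10.79 log2 CPM in shDesmin libraries and at 9.60, 9.70 and 9.78 in null libraries, and the groups were far apart (log2 change 1.13, SE 0.10, adjusted p = 3.9e-06). Cox7c, a subunit of cytochrome c oxidase, lies 774 kb from the nearest edge of a 2.02 Mb domain at chr2:14699882-14701903. Its values were 10.45, 10.70 and 10.40 against 9.16, 9.59 and 9.81, a log2 change of 1.00 (SE 0.15, adjusted p = 2.0e-04), but with quantile normalization the change was 0.06 and the call was lost (adjusted p = 0.69). Phf14, a PHD finger chromatin protein with 64% of its span inside, rose by 1.02 (9.27 ± 0.13 against 8.25 ± 0.22, SD, n = 3 each).

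Gbe1, the glycogen branching enzyme, is the 1 listed gene of the 6.46 Mb domain on chromosome 11 and straddles its edge with 56% of its span inside. Its levels of 7.14, 7.27 and 7.23 log2 CPM in shDesmin libraries lay above 6.10, 5.96 and 6.03 in null libraries (log2 change 1.18, SE 0.09, adjusted p = 1.4e-06). Mettl15, a methyltransferase of the mitochondrial small-subunit ribosomal RNA, rose by 1.56 (SE 0.23, adjusted p = 1.5e-04). Pdha1l1, whose name marks it as a relative of the pyruvate dehydrogenase subunit gene Pdha1, rose by 1.57 (4.39 ± 0.17 against 2.82 ± 0.58), and reads of near-identical copies could be split between them. Genes of the mitochondrial ribosome differed. Mrpl50 rose by 0.62, while 2 others were not called: Mrps30 stood at 6.67 ± 0.10 against 6.46 ± 0.09 and Mrpl32 at 4.97 ± 0.03 against 4.92 ± 0.23. Mrps30 was called higher with median centring (0.39, limma adjusted p = 0.0071) and with library weights (0.24, limma adjusted p = 0.028). Its main change of 0.21 was smaller than the shift of -0.71 that library totals gave to every change, so it was negative there.

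Tecrl had the largest log2 change among members with a mean level of at least 2 log2 CPM. It codes for an enoyl-CoA reductase-like protein of the endoplasmic reticulum found in heart and skeletal muscle, and human variants in it cause an inherited arrhythmia. The gene lies at chr14:26662965-26737657, with its midpoint 523 kb from the nearest edge of a 1.94 Mb domain. It had 405, 338 and 421 reads in shDesmin libraries and 72, 44 and 43 in null libraries. On the log2 CPM scale these were 5.66, 5.66 and 5.78 against 2.48, 2.01 and 1.77, a 12.2-fold rise (log2 change 3.61, SE 0.18, adjusted p = 1.1e-07). It was also the only tested member of the list of 41 cardiomyocyte contractile and calcium genes inside a megabase domain; of the 38 tested genes of that list 31 were called higher and 3 lower, beside 27.5% and 31.4% of all tested genes.

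Ctnna3, alpha-T-catenin of the intercalated disc, lies almost wholly inside (97%) a 2.26 Mb domain at chr20:25064702-25826658. It had 62, 60 and 63 reads in shDesmin libraries and 9, 7 and 4 in null libraries. This gave 2.96, 3.17 and 3.05 log2 CPM against -0.46, -0.56 and -1.50, with a log2 change of 3.90 (SE 0.34, adjusted p = 3.5e-06). The symbol has another entry on chromosome 20 in the table, so reads of the gene may be divided between entries. Myl1, an essential light chain of fast skeletal muscle myosin, fell: 3.18, 2.66 and 2.90 in shDesmin libraries lay below 4.16, 4.45 and 4.82 in null libraries (log2 change -1.57, SE 0.20, adjusted p = 4.8e-05).

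Dnajb9, a co-chaperone of the endoplasmic reticulum that the unfolded protein response induces, lies at chr6:64165914-64170122 in a 3.49 Mb domain. It had 7.72, 7.68 and 7.52 log2 CPM in shDesmin libraries and 6.08, 5.93 and 5.69 in null libraries, a 3.34-fold rise (log2 change 1.74, SE 0.11, adjusted p = 4.6e-07). Asns, which makes asparagine and is a textbook ATF4 target, lies at chr4:33743364-33761163 and fell, with 6.71, 6.62 and 6.65 against 7.66, 7.50 and 7.50 (log2 change -0.89, SE 0.09, adjusted p = 8.6e-06). Slc7a11, the cystine-glutamate exchanger and also a known ATF4 target, lies at chr2:139453774-139528162 in a 2.95 Mb domain. Its 2.41, 1.68 and 2.53 log2 CPM in shDesmin libraries lay under 3.63, 3.58 and 3.51 in null libraries (log2 change -1.37, SE 0.23, adjusted p = 3.8e-04). Mios, a GATOR2 subunit that relays amino acid supply to mTORC1, shares the 1.22 Mb domain of Asns and fell by 1.11 (SE 0.19, adjusted p = 4.7e-04). Aimp1, a scaffold of the aminoacyl-tRNA synthetase complex, had 6.22 ± 0.16 against 6.32 ± 0.26 and was not called, as was the proteasome subunit Psma2 with 7.25 ± 0.04 against 7.15 ± 0.15.

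Of 17 tested genes of the list of excitable-cell channels and receptors 10 were called higher and 4 lower, beside 27.5% and 31.4% of all tested genes. Of the 17, 2 lie in megabase domains, which held 1.93% of all tested genes. Kcnj3, a subunit of the muscarinic-gated potassium channel of atrial cells, had 3.05, 2.79 and 2.80 log2 CPM against 2.01, 0.82 and 1.00 and rose by 1.60 (SE 0.31, adjusted p = 9.3e-04). Kcnq5, a Kv7 potassium channel, had 1.78, 1.11 and -0.48 against 2.52, 1.91 and 1.90; it was called lower (log2 change -1.30, adjusted p = 0.036), but the call was lost without shDesmin replicate 3 (-0.66, adjusted p = 0.10), without null replicate 1 (adjusted p = 0.10) and without null replicate 2 (adjusted p = 0.057). Dgkb, a diacylglycerol kinase, spans 761 kb deep inside a 2.99 Mb domain and rose by 1.90, with 78, 61 and 61 reads in shDesmin libraries and 33, 23 and 32 in null libraries (SE 0.21, adjusted p = 2.1e-05). Bche, butyrylcholinesterase, rose by 1.45 (4.38 ± 0.19 against 2.93 ± 0.02) and Car2, carbonic anhydrase 2, by 1.35 (5.86 ± 0.08 against 4.51 ± 0.14). Reg3b, a secreted C-type lectin, rose by 1.53 (SE 0.29, adjusted p = 8.0e-04), and Inhba, the activin beta A chain, by 1.70 at few reads (35, 23 and 48 against 32, 21 and 7), a call that library totals did not keep (0.99, adjusted p = 0.13).

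Neuronal adhesion genes, a class long tied to lamina domains, mostly went unlisted. Of 82 genes on the list of synaptic adhesion and axon guidance 15 were tested, with 5 called higher and 3 lower, beside 27.5% and 31.4% of all tested genes. Of the 15, 4 lie in megabase domains, against 1.93% of all tested genes, Ctnna3 among them although it is a junction gene of the heart. Lsamp, an IgLON adhesion protein, had 77, 90 and 92 reads in shDesmin libraries and 10, 13 and 19 in null libraries. Its log2 change of 3.34 (SE 0.29, adjusted p = 3.0e-06) took it to 3.27, 3.75 and 3.59 log2 CPM against -0.31, 0.29 and 0.61. Csmd1, a large membrane protein that limits complement, went the other way, with 7, 3 and 1 reads against 35, 24 and 32 (log2 change -2.45, SE 0.55, adjusted p = 0.0026). Epha7, an ephrin receptor, had 1.02 ± 0.83 against 0.65 ± 0.23 log2 CPM and was not called. Of 35 tested developmental transcription factors 11 were called higher and 8 lower, beside the same background. Of the 2 inside, Foxp2 had 0.72 ± 0.88 against 0.65 ± 0.36 and was not called, and Mecom was called higher by 1.04 (adjusted p = 0.035) with overlapping groups and lost the call without shDesmin replicate 1 or 3 or null replicate 1 or 3 (adjusted p of 0.073, 0.14, 0.081 and 0.11). Cd200, of the list of sensory, keratin and immune families, was the 1 tested gene of that list inside and was not called at 0.69 ± 1.07 against -0.64 ± 1.14. Lists of lamins and lamina tethers (18 tested, 4 higher and 4 lower) and of H3K9 methylation genes (18 tested, 2 higher and 8 lower), beside the same background, had 0 members inside.

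Col3a1, collagen III, had 2.84, 2.36 and 3.95 log2 CPM in shDesmin libraries and 1.45, 2.25 and 1.00 in null libraries (log2 change 1.49, SE 0.40, adjusted p = 0.0078), and library totals did not keep the call (0.77, adjusted p = 0.14). Dcn, the proteoglycan decorin, had 2.60, 3.12 and 2.47 against 0.85, 1.60 and -0.76 (log2 change 2.17, SE 0.49, adjusted p = 0.0027). Both are themselves fibroblast markers, and 3 of the 7 fibroblast markers were listed, so the sum of these markers is not independent of them. It was 15.4 to 24.7 CPM in shDesmin libraries and 2.95 to 9.81 CPM in null libraries, while Col1a2, Lum, Pdgfra and Tcf21 were not listed. Other marker sums, in shDesmin and then null libraries, were 62382 to 72957 and 19276 to 22756 CPM for cardiomyocytes (9 of 10 listed), 228 to 342 and 113 to 191 for endothelium (6 of 7), and 412 to 601 and 223 to 305 for pericytes and smooth muscle (5 of 7). Macrophage markers summed to 2.87 to 3.77 and 16.1 to 17.1 CPM (2 of 6) and Schwann and neuronal markers to 3.28 to 4.30 and 6.13 to 8.50 (2 of 7), while 0 of 3 adipocyte markers were listed. The part of other cells in the changes of Col3a1 and Dcn was not tested.

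The remaining large falls were of genes with varied roles in the cell. Dsel, a relative of dermatan sulfate epimerase, fell by 1.80 (12, 14 and 23 reads in shDesmin against 113, 76 and 92 in null libraries, adjusted p = 2.0e-04). Ccdc59 fell by 1.53 (SE 0.15, adjusted p = 6.1e-06), with 3.03, 2.79 and 2.83 log2 CPM against 4.35, 4.39 and 4.51. Arap2, a GTPase-activating protein for Arf, fell by 1.42 and Tmem261 by 1.26 (adjusted p of 1.6e-04 and 1.3e-04). Pot1, a telomere-binding protein of shelterin, fell by 1.10 (1.83 ± 0.13 against 2.92 ± 0.12), and Nedd1, which recruits gamma-tubulin to the centrosome, by 0.97 (3.18 ± 0.13 against 4.15 ± 0.14). For the falls named, as for the 10 largest rises, the rule for naming asked that the groups not overlap.

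**Figure D3:**
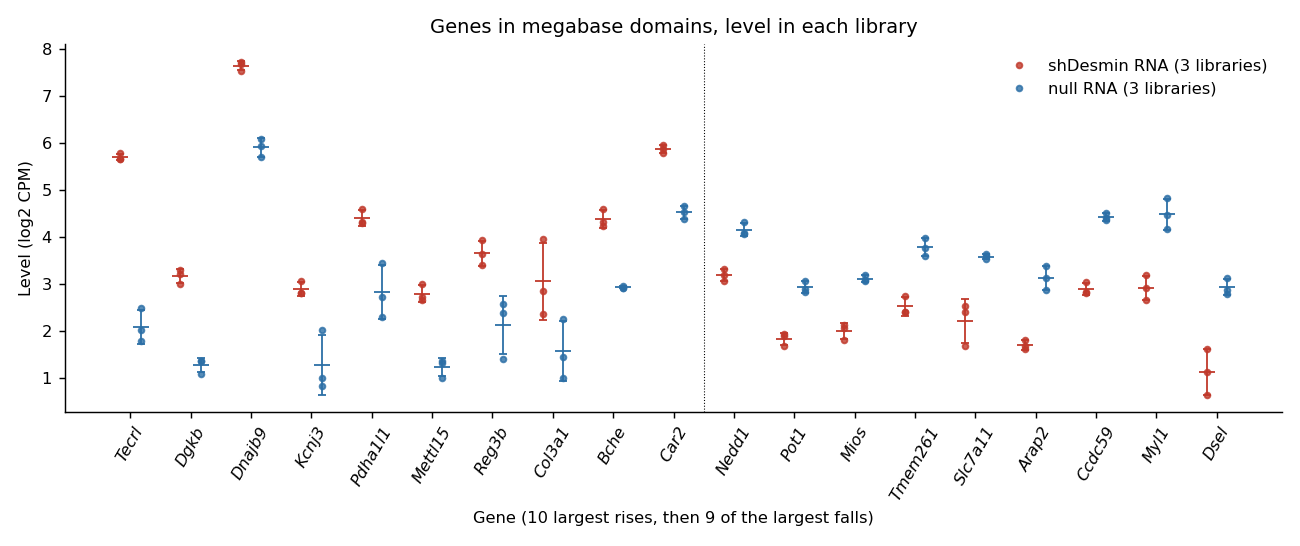
Level in log2 CPM of the 10 largest rises and 9 of the largest falls among members with a mean of at least 2 log2 CPM, as points for each library with the mean and SD (n = 3 each). The 2 groups do not overlap for any gene, as the rule required, and Col3a1 shows the widest spread within the shDesmin libraries.

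**Figure D4:**
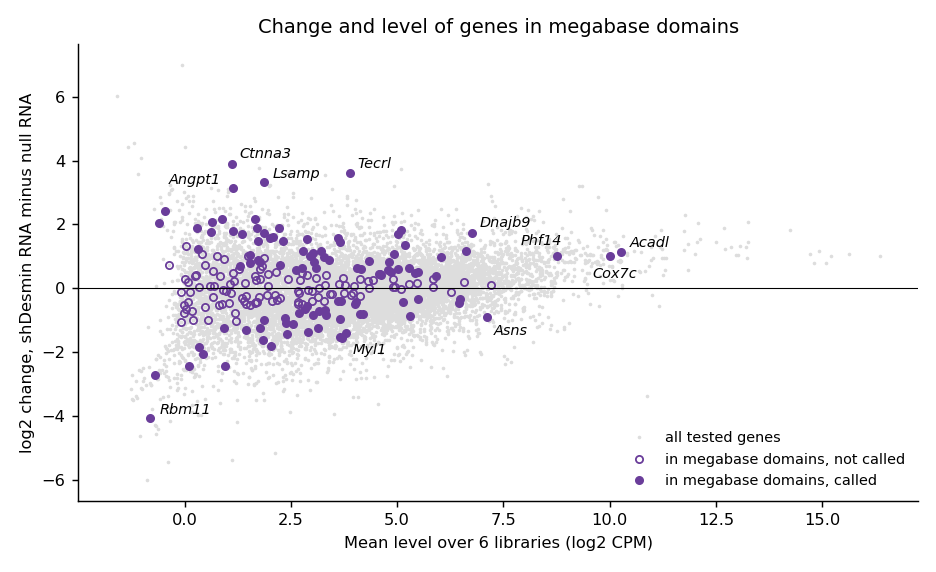
Log2 change against mean level for all 11033 tested genes, with the 213 in megabase domains drawn over them. Members spread over both directions, from Rbm11 at the low end to Ctnna3 and Tecrl at the high end. Of the members with the highest levels, Acadl, Cox7c and Phf14 lie above 0 and Asns lies below.

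Some genes outside the naming rule are also given, chosen after their values were seen. Angpt1, a ligand of the endothelial receptor Tie2, had 50, 38 and 61 reads in shDesmin libraries and 11, 4 and 14 in null libraries (log2 change 3.16, SE 0.39, adjusted p = 4.3e-05). Rbm11, an RNA-binding protein, was called lower with 1, 1 and 0 reads against 30, 26 and 28 (adjusted p = 1.7e-04), too few for a fold. Ednrb, an endothelin receptor, was called higher with 48, 18 and 112 reads against 32, 35 and 7, though its groups overlapped. Kitlg, the ligand of the receptor Kit, rose by 1.08 (5.47 ± 0.24 against 4.38 ± 0.20, adjusted p = 9.4e-05).

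Genes that share a megabase domain did not always share a direction. A called gene was present in 81 domains, and 18 domains held 2 or more. Of these 18, 11 held calls in both directions, 4 only higher and 3 only lower. The number to be expected from the shares called was not worked out, and these counts were not redone under other scalings. The domain at chr9:73833001-76040999 held Acadl, which rose by 1.13, Myl1, which fell by 1.57, Lancl1, which rose by 0.38, and Erbb4, the neuregulin receptor, which rose by 1.22. In the domain of Ccdc59 its neighbour Mettl25 fell too (-0.83), while Acss3 rose by 1.47. In a 3.74 Mb domain on chromosome 8 Aasdhppt fell by 0.43 and Msantd4 rose by 0.52, and a 2.69 Mb domain of chromosome 5 held Mrpl50 and Zfp189, up by 0.62 and 0.81, and Tmem246, down by 0.68. Neighbours also moved together: Col3a1 and Col5a2 rose by 1.49 and 1.18 in a 1.12 Mb domain, Dnajb9 and Pnpla8 by 1.74 and 0.98, and the antiviral genes Trim34 and Trim5 fell by 1.83 and 0.81. These pairs were chosen after their values were seen.

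The domain with the most listed genes, chr17:50214001-53584799, held 6, and they did not share a direction. Inhba rose by 1.70 and RGD1308147 fell by 0.39 (adjusted p = 0.046), a call that was lost without shDesmin replicate 1, 2 or 3 or null replicate 2 or 3 (adjusted p of 0.15, 0.054, 0.065, 0.062 and 0.18). Psma2, Mrpl32 and Rn60_17_0530.1 were not called. In the Asns domain C1galt1, an O-glycan synthase, had 3.88 ± 0.25 against 3.56 ± 0.23 log2 CPM, Rpa3, of single-strand DNA-binding protein A, 1.91 ± 0.18 against 1.63 ± 0.24, and Glcci1 1.20 ± 0.49 against 1.70 ± 0.34, none of them called. In chr4:41400001-44383199, with Foxp2, the cytoskeletal gene Tes rose by 0.85 (adjusted p = 0.0097; 0.14 and not called with library totals, adjusted p = 0.64). Mdfic had 3.54 ± 0.35 against 3.12 ± 0.14, Rbmxl1b 1.60 ± 0.23 against 1.88 ± 0.52 and Cttnbp2, a partner of cortactin, 0.18 ± 0.44 against 0.77 ± 0.19, and these were not called.

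**Figure D5:**
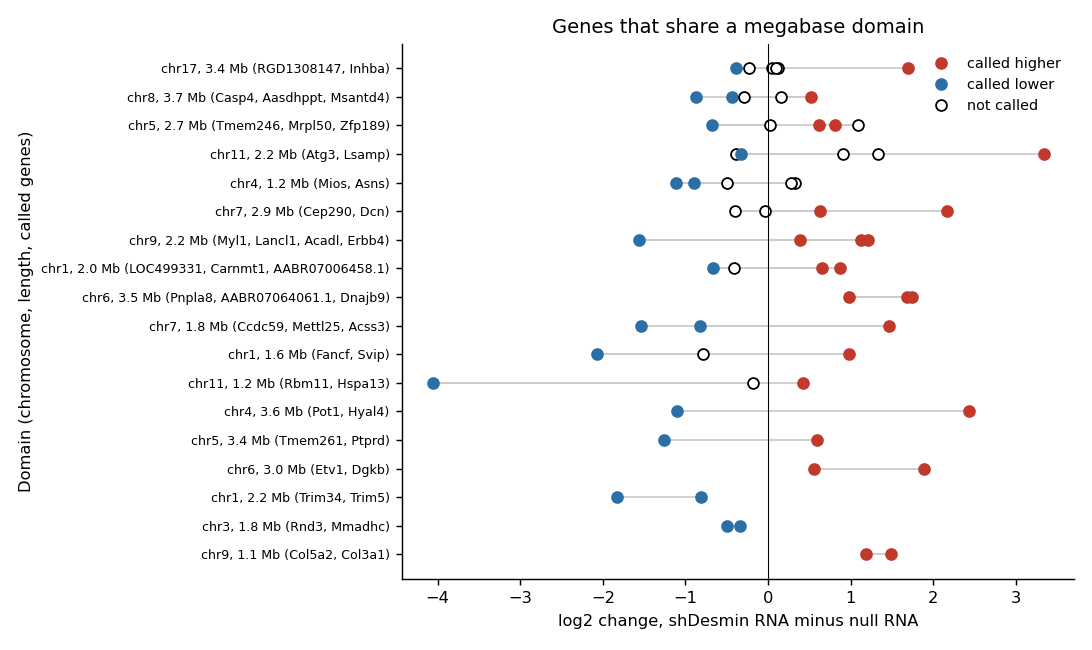
Each row is 1 of the 18 megabase domains with 2 or more called genes, named by chromosome, length and called genes, and each point is the log2 change of a tested gene. In 11 rows red points (called higher) and blue points (called lower) stand on the same line.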

How the data were processed

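Domain positions and RNA values were deposited by the authors. The domain list gives starts and ends on rn6 with no score. It was made from 3 combined Lamin B ChIP replicates with inputs of scrambled cells, according to the study's design text. The submitters' processing notes name, without roles, STAR 2.6.0c, Trimmomatic 0.32, featureCounts, limma, edgeR, bedtools, deepTools, SAMtools, Picard and BWA. RNA was sequenced as 75 bp reads, per the labels' protocols.

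The deposited log2 values of the RNA table are a library's scale times reads plus 0.5. Whole reads came back for 100% of values in every library (within 0.001), and a constant of 5.70 shared by all libraries was subtracted, which leaves log2 CPM if the libraries' scale factors have a geometric mean of 1. Levels, the filter at 0 and the limit of 2 log2 CPM for named genes rest on that constant, and changes do not. In a library with 0 reads of a gene the level may be as high as that of 3 reads, 0.23 to 0.45 CPM, for counting error only. The authors' deposited table of differential expression holds signed fold and t scores and p-values with adjusted p-values, and served as an alternative only.

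The shDesmin and null libraries were compared in R 4.3.3 with limma 3.58.1 (a linear fit with group alone, then trended eBayes, two-sided). Genes entered if 3 or more of the 6 libraries exceeded 0 log2 CPM, which kept 11033 of 11383. The step was tested on simulated data. The added 0.5 shrinks the folds of genes with few reads. Libraries of a group differed beyond counting noise, so each was 1 sample. Gene positions come from the RNA table, carry no strand, and are on the same build. Gene names and order in GRCr8 came from RefSeq, to which 96.0% of listed genes matched. Python 3.11.15, numpy 2.4.6, pandas 2.3.3 and matplotlib 3.10.9 were used.

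The domains, gene lists and tests were chosen with earlier results of these data known. Named genes, besides Des, are the 10 largest rises and 10 largest falls inside (called, groups apart, mean of at least 2 log2 CPM, a symbol that is not an ID), the 5 highest levels, the 3 highest not called, the top genes of the 3 longest domains and of the 3 with most tested genes, and all tested list members inside. A gene among these falls is not reported here. Alternatives covered filters, added reads, scaling, variance model, library weights, replicate block, leaving out each library, gene placement and domain definition.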

Additional observations from a re-analysis of the deposited data

How the results depend on the processing

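The counts of genes in megabase domains called higher and lower, 65 and 41, stayed within 1.5 times under the filters, the larger pseudocount, median centring, quantile normalization, the variance and weight settings, the authors' deposited table (66 and 42), every way of placing genes and every domain definition. Library totals gave 27 higher and 105 lower inside, with 802 and 6892 over all tested genes, and totals without mitochondrial genes, added after seeing the data, gave 33 and 95, with 1151 and 6253. The median log2 change inside was 0.30 with median centring, 0.24 with quantile normalization, -0.59 with library totals and -0.42 with totals without mitochondrial genes. The median level inside in shDesmin and null RNA was 3.48 and 3.55 with the stricter filter (135 tested genes), 2.74 and 2.34 with quantile normalization, 2.27 and 2.81 with library totals, 2.95 and 3.33 with totals without mitochondrial genes, 2.73 and 2.52 for genes wholly inside, and 2.88 and 2.78 in the 197 domains of at least 1500000 bp (141 tested genes), and median centring moved the null value to 2.37. Leaving out 1 library gave 53 to 67 higher and 32 to 40 lower inside, a median change of 0.07 to 0.17, 204 to 206 tested genes, median levels of 2.60 to 2.73 in shDesmin and 2.50 to 2.62 in null RNA, and 2582 to 3191 higher and 2833 to 3260 lower over all genes. Of 49 named genes, Des included, none of those called in the main fit changed direction. A change of direction in a gene not called there was not counted. Calls were lost by 7 genes under some other alternative and by 3 without some library. Replicate numbers did not pair the libraries (correlations of deviations 0.13, -0.07 and -0.17), and the replicate block gave 65 higher and 41 lower inside and 3092 and 3491 over all genes. The edgeR and DESeq2 alternatives were not run. Inside, the median standard error of a log2 change was 0.44 below 1 log2 CPM and 0.13 at 4 or more. The causes of these shifts were not tested.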
